A study of Mus musculus with 200 samples.

Results

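Angptl4 and 8 further genes of fatty acid supply, use and storage (Lpl, Cpt1a, Pdk4, Acaca, Fasn, Scd2, Plin2 and Fabp3) were followed through whole mouse embryos at embryonic day 11.5 (E11.5), among 22033 genes in the deposited tables. Angptl4 was selected on its difference between embryos of B6 and F1 mothers, and the other 8 were chosen by name as genes of the same metabolism. Each embryo was profiled on its own with 3SEQ, an RNA sequencing method that reads the 3′ ends of transcripts, and expression is given as reads per 1000000 reads on genes (RPM). Since counts were not divided by transcript length, levels of different genes were not compared.

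The parental strains were C57BL/6J (B6), the reference inbred strain, and CAST/EiJ (Cast), an inbred strain of the castaneus subspecies. F1 embryos came from reciprocal crosses, 8 of B6 females mated to Cast males (B6 × Cast, litters 3 and 5) and 8 of Cast females mated to B6 males (Cast × B6, litters 1 and 2), all heterozygous at their autosomes. N2 embryos came from backcrosses of F1 animals to B6, and each carried either 2 B6 copies of an autosomal gene (B6/B6) or a copy of each strain (B6/Cast). Of the 154 N2 embryos used, 89 were conceived in B6 females by F1 males (B6 × F1, 17 litters) and 65 in F1 females by B6 males (F1 × B6, 12 litters). The F1 parents were bred from B6 females and Cast males, so that all N2 embryos carried B6 mitochondria, whereas the F1 crosses differed in mitochondria. Sex chromosomes differed between the crosses in both generations. In B6 × F1 the F1 father passed a B6 X or a Cast Y. In F1 × B6 the F1 mother passed an X of either strain or a mix of both, and sons had a B6 Y.

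Depth ranged from 245220 to 5370322 reads on genes in N2 embryos and from 15703888 to 38234229 in F1 embryos. N2 embryos were sequenced in 14 lanes, labelled A to N, of which A to G shared a flowcell and H to N another. Only lane M held both mothers, with 1 B6-mother embryo beside 8 from F1 mothers, so that mother and lane can hardly be told apart. As whole embryos were sampled, a shift in the share of a cell type cannot be told apart from a shift of RNA per cell. Of the placental markers, 5 of 9 had any read in N2 embryos, none reached a mean of 5 RPM, and Prl3d1, Prl2c2, Psg21 and Ctsq were at 0, while all 8 heart muscle and all 6 erythroid markers exceeded it.

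Angptl4 encodes a secreted protein that inhibits lipoprotein lipase, the enzyme encoded by Lpl, which frees fatty acids from circulating triglyceride at the vessel wall. Cpt1a carries fatty acids toward oxidation in mitochondria, Pdk4 restrains pyruvate dehydrogenase, Acaca and Fasn make fatty acids, Scd2 desaturates them, Plin2 coats lipid droplets and Fabp3 binds fatty acids in the cytosol. Several of these genes are classical targets of the PPAR nuclear receptors, which bind DNA with an RXR partner at direct repeats spaced by a single base (DR1) and respond to fatty acids, fasting and, for Angptl4, low oxygen.

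In mm9, Angptl4 lies on chromosome 17 at 33910695 to 33918520 on the minus strand, Lpl on chromosome 8 at 71404390 to 71431347 on the plus strand, and Acaca on chromosome 11 at 83943174 to 84215153 on the plus strand. The window from 1000 bases before to 8000 bases after each gene start was searched on both strands for the DR1 letters, 2 copies of AGGNCA with 1 base between them. Of the 9 genes, 3 held them, against 3422 of 22380 protein-coding genes (15.3%). The 4 matches are shown with 8 reference bases on either side, because they are the stretches of these genes with the letters of a PPAR half-site repeat; capitals mark the 13 matched bases, written along the strand of the match. They are matches of letters in the B6 reference and not measured binding sites.

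Angptl4, exon, chr17:33911349-33911361: cacccaaaAGGTCAAAGGACAgaacagat
Angptl4, intron, chr17:33912720-33912732: gggtatgaAGGTCAGAGGACAgcttgtgg
Cpt1a, intron, chr19:3330485-3330497: ctgtggggAGGTCAGAGGACAgtttgtgg
Fasn, intron, chr11:120680616-120680628: aaaaaacaAGGTCAGAGGACAagggtctt

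Both Angptl4 matches lie in the gene body, 7159 and 5788 bases downstream of its start. The windows of Lpl, Pdk4, Acaca, Scd2, Plin2 and Fabp3 did not hold these letters.

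Of the 9 genes, 7 reached a mean of 5 RPM over N2 embryos, as did 10007 genes in all. Fabp3 and Pdk4 were close to the limit of detection, with 90 and 41 reads in all 154 N2 embryos and no read in 93 and 122 of them. In F1 embryos, sequenced more deeply, Pdk4 had 2 to 13 reads per embryo and Fabp3 4 to 26. Their values are therefore given no further weight, and differences of either were not detectable at this depth.

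Angptl4 was read in every N2 embryo. In embryos of B6 mothers it ranged from 28.5 to 162.2 RPM with a median of 93.6, and in embryos of F1 mothers from 35.6 to 93.2 RPM with a median of 59.2. The means were 89.7 ± 27.96 RPM (SD, n = 89) and 58.9 ± 11.8 RPM (SD, n = 65), a ratio of 1.52. This is the contrast on which the gene was selected, so it is given as a description without a test. The upper part of the B6-mother range lay above every embryo of an F1 mother, and its lower part reached below all of them.

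**Figure D1:**
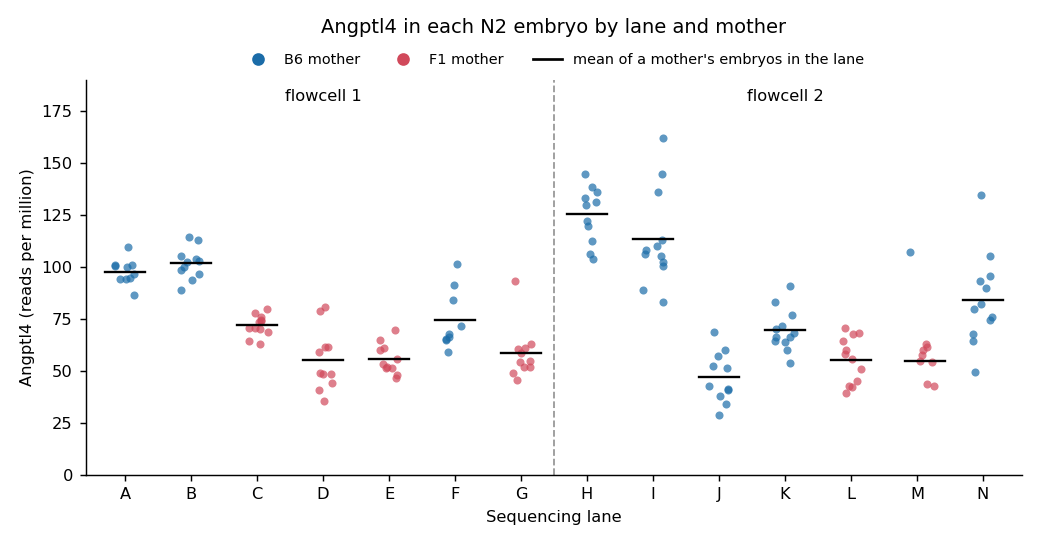
Angptl4 in each N2 embryo (points, RPM, linear axis) by sequencing lane, coloured by mother; black bars are means of a mother's embryos in a lane. Lane means of B6 mothers run from 46.9 in lane J to 125.3 in lane H, and those of F1 mothers from 54.7 to 71.99.

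Litters and lanes showed a wide spread under B6 mothers and a narrow one under F1 mothers. Over litter means, Angptl4 was 84.6 ± 25.8 RPM (SD, n = 17 litters) under B6 mothers and 61.7 ± 9.20 RPM (SD, n = 12 litters) under F1 mothers, and 11 of the 17 B6 litters exceeded the highest F1 litter, 2 fell below the lowest and 4 lay within. Of 8 lanes with at least 2 embryos of B6 mothers, lanes H (125.3 RPM), I (113.5), B (101.8), A (97.9), N (84.4) and F (74.7) stood above all 6 lanes of F1 mothers. Lane K (69.7) fell within their range and lane J (46.9) below it. Lane J was also the shallowest, with a mean of 712625 reads per embryo, and the part of depth in its low level was not tested.

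The direction of the Angptl4 difference was the same in both flowcells. It was 92.4 ± 15.1 RPM (n = 30) against 60.6 ± 12.4 (n = 45) in the first, and 88.3 ± 32.6 (n = 59) against 55.1 ± 9.72 (n = 20) in the second. Between 47 and 51 somites, where 40 embryos of each mother were available, it was 92.8 ± 26.03 against 57.8 ± 10.7 RPM. In alternatives chosen after the data were seen, the ratio was 1.62 without lane J, 1.70 without lanes J and K, and 1.35 without lanes H and I.

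Litters divided between lanes allowed the same comparison among siblings. Angptl4 in B6 × F1 litter 13 averaged 129.6 RPM in lane H (4 embryos) and 73.6 in lane K (2 embryos), without overlap. In B6 × F1 litter 3 it averaged 98.1 RPM in lane I (6 embryos), 75.2 in lane F (2) and 51.2 in lane J (3). In B6 × F1 litter 15 it was 68.998 RPM in lane K (2 embryos) and 107.2 in the single embryo of a B6 mother in lane M. Siblings thus differed by as much as the mothers did. Of the 8 litters that could be compared, the largest ratio between lanes was 1.92 and the median 1.17. Litters of F1 mothers moved less, for example 46.0 RPM in lane D and 46.9 in lane L for F1 × B6 litter 3, and 50.4 in lane L and 52.2 in lane M for litter 11. The widest among them was litter 6, with 70.04 RPM in lane D and 53.3 in lane G.

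Lane took 75.2% of the variance of Angptl4 ranks over N2 embryos and mother 32.7%, against medians of 59.4% and 1.58% over all genes tested. Since lanes are nested almost completely in mothers, these shares overlap. For Acaca the share of mother was 31.3%, and for the other 5 detected members it ran from 0.117% to 2.34%. Within lanes the coefficient of variation of Angptl4 was 18.1%, and counting alone would give 8.88% over all N2 embryos. These values are not parts of a sum. Summed heart muscle markers moved with the mother as well, ranging from 1205 to 3834 RPM with a median of 2695 under B6 mothers and from 1126 to 3794 with a median of 2026 under F1 mothers; their part in the Angptl4 difference was not tested. All 8 of those markers were detected, none at 0.

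Lane took 59.1% to 75.5% of the rank variance of the 6 other members at or above 5 RPM, on both sides of the median of all genes, and the levels of several differed severalfold between lanes. Scd2 ranged from 66.4 to 231.5 RPM over the means of lanes J to N (56 embryos) and from 14.1 to 22.5 RPM over those of lanes A to I (98 embryos). Cpt1a followed the same division, with lane means of 8.03 to 19.6 RPM in J to N and 1.36 to 2.74 in A to I, while Plin2 went the other way, with 12.5 to 33.1 against 40.8 to 81.3 RPM. The division of lanes was drawn after these values were seen, and both mothers occur on each side of it. Lpl (8.04 to 35.9 against 7.30 to 24.01 RPM) and Fasn (116.6 to 190.8 against 56.9 to 160.8 RPM) overlapped between the sets.

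**Figure D2:**
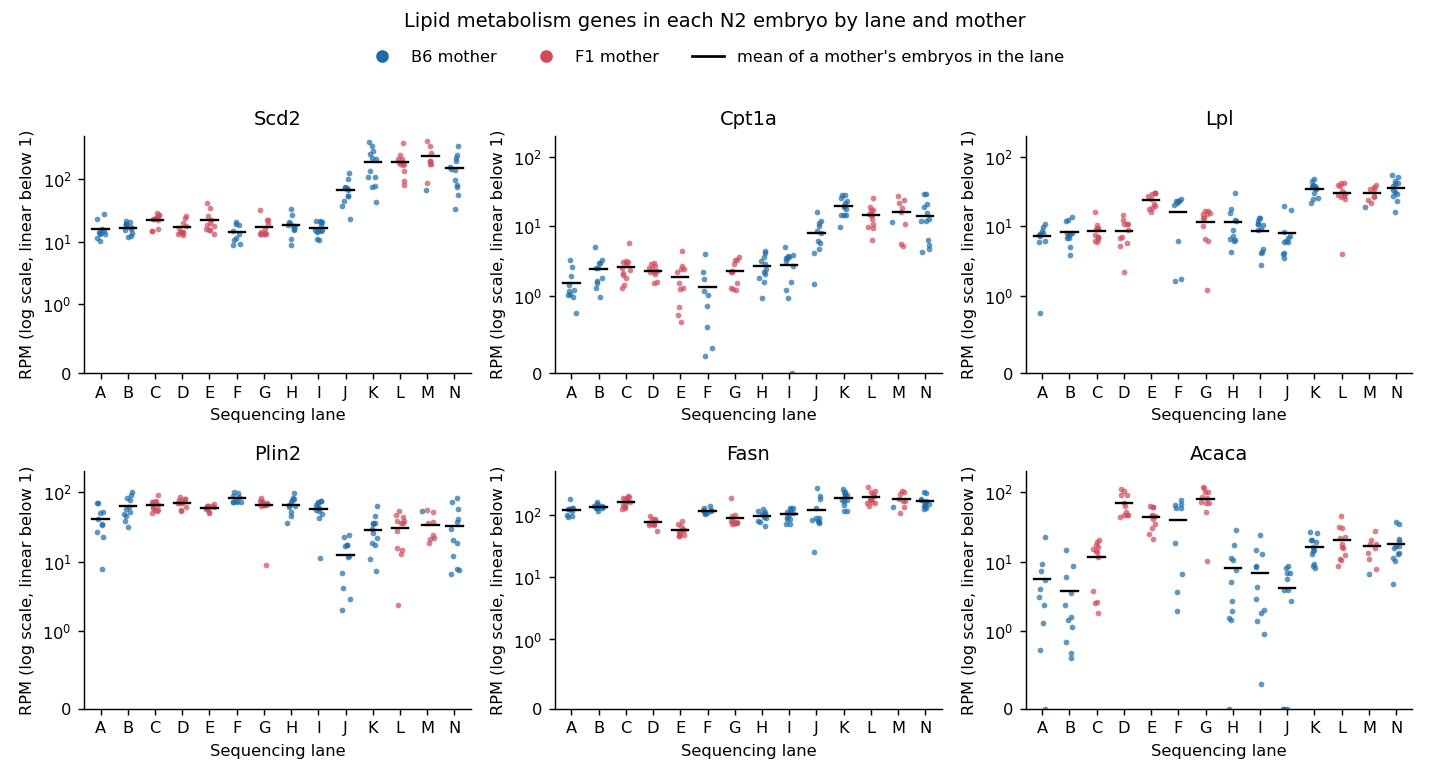
Scd2, Cpt1a, Lpl, Plin2, Fasn and Acaca in each N2 embryo by lane, in RPM on an axis that is logarithmic above 1 and linear below; colours show the mother and black bars the mean of a mother's embryos in a lane. Scd2 and Cpt1a step up and Plin2 steps down between lanes A to I and J to N, with both mothers on each side.

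Siblings in different lanes differed in the same way. In B6 × F1 litter 13, Scd2 averaged 19.9 RPM in lane H and 232.4 in lane K, Cpt1a 2.82 and 23.7, and Plin2 71.7 and 28.2. F1 × B6 litter 3 gave the same picture, with Scd2 at 14.7 RPM in lane D (5 embryos) and 237.0 in lane L (2 embryos) and Lpl at 9.71 and 36.9 RPM. Between lanes of a litter the ratio reached 16.2 for Scd2, 12.5 for Acaca, 8.42 for Cpt1a, 5.77 for Plin2, 3.80 for Lpl and 2.21 for Fasn. The means by mother pool lanes of both kinds. Scd2 was 64.2 ± 84.7 RPM under B6 mothers and 77.03 ± 99.4 under F1 mothers, Plin2 46.7 ± 27.1 and 54.5 ± 20.3, Lpl 16.8 ± 13.4 and 18.4 ± 11.2, Fasn 130.2 ± 45.0 and 124.4 ± 61.2, and Cpt1a 6.98 ± 7.72 and 6.22 ± 6.95 RPM (SD, n = 89 and 65). Within flowcells these values moved. On the second flowcell Scd2 was 88.8 ± 95.1 RPM under B6 mothers and 205.8 ± 89.3 under F1 mothers, against 15.7 ± 4.43 and 19.8 ± 6.62 on the first. Cpt1a was lower under B6 mothers in both flowcells, at 1.81 ± 1.13 against 2.28 ± 0.959 RPM and 9.61 ± 8.30 against 15.1 ± 6.42 RPM. Fasn turned from 124.4 ± 18.6 against 96.9 ± 46.4 RPM on the first flowcell to 133.1 ± 53.6 against 186.3 ± 42.7 on the second, and Plin2 from 60.9 ± 24.5 against 64.7 ± 12.6 to 39.5 ± 25.7 against 31.6 ± 14.9. Lpl was lower under B6 mothers in both flowcells, at 10.3 ± 6.90 against 13.1 ± 7.64 RPM and 20.1 ± 14.7 against 30.3 ± 8.76 RPM. Scd2, Cpt1a and Lpl thus kept a direction within flowcells, although the pooled means of Cpt1a ran the other way. Fasn and Plin2 did not keep one. Mother and lane can hardly be told apart and these differences were not tested, so no direction between mothers is drawn for these genes.

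Acaca, which encodes the enzyme that makes malonyl-CoA for fatty acid synthesis, ran opposite to Angptl4. It ranged from 0 to 76.4 RPM with a median of 7.55 in embryos of B6 mothers and from 1.83 to 116.9 with a median of 30.4 in embryos of F1 mothers. The ranges overlapped widely, and the means were 12.2 ± 15.4 RPM (SD, n = 89) and 40.3 ± 31.9 RPM (SD, n = 65). Within flowcells the ratio of B6 to F1 mothers was 0.304 in the first and 0.570 in the second. On the second flowcell, lanes K (16.3 RPM) and N (17.8) of B6 mothers lay close to lane L (20.4) and the F1-mother embryos of lane M (16.6). The B6-mother lanes H (8.01), I (6.91) and J (4.24) were lower. Lanes D (69.2 RPM), E (43.1), F (39.6) and G (79.2), all on the first flowcell, carried the high embryos of both mothers, whereas lane C, with F1 mothers, averaged 11.5.

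Acaca also differed between litters of a lane and between lanes of a litter. In lane F, the 7 embryos of B6 × F1 litter 4 averaged 49.4 RPM and the 2 of litter 3 averaged 5.20, and litter 3 was similarly low in lanes I (4.52) and J (3.98). In F1 × B6 litter 9, however, 2 siblings in lane C had 2.51 and 13.6 RPM and 3 in lane G had 84.3 to 116.9. These litters were named after their values were seen, and genotype and stage differed with them. Both litter 3 embryos in lane F were B6/B6, at a mean of 51.5 somites, while 4 of the 7 of litter 4 were B6/Cast, at 44.75 somites, and the other 3 were B6/B6 and averaged 39.99 RPM at 44.3 somites. In litter 9 both lane C siblings were B6/B6, and in lane G 2 were B6/Cast and the B6/B6 one had 84.3 RPM.

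Allele votes, in which the authors divided each read covering strain differences into fractions for B6 and Cast, were used to follow the alleles separately, with the B6 allele fraction (BAF) as B6 votes over all votes. Angptl4 and Fabp3 had no vote in either generation, and Pdk4 too few to be tested. For 6 members a paired test of B6 against Cast votes was run over F1 embryos and heterozygous N2 embryos, called where the Bonferroni adjusted p was under 0.01 and the BAF lay outside 0.45 to 0.55, and 2 were called, against 19.1% of 9084 genes. Both favoured Cast.

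Acaca had a BAF of 0.167 in F1 embryos pooled (8615 votes, 95% Wilson interval 0.159 to 0.175, counting error only). Pooled votes gave 0.167 in B6 × Cast and 0.166 in Cast × B6. Means over embryos were 0.151 ± 0.0569 and 0.112 ± 0.129 (SD, n = 8 each), with single Cast × B6 embryos from 0.0129 to 0.358. The Cast allele was higher in all 16 F1 embryos, and the adjusted p over 89 embryos was 2.92e-21 in the paired test. In heterozygous N2 embryos the pooled BAF was 0.220 under B6 mothers and 0.268 under F1 mothers. B6/B6 embryos of B6 mothers had no Cast vote among 618, which allows a share of up to 0.618% by the Wilson interval, and those of F1 mothers had 2 among 1967.

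Relative to its mean level, the B6 allele of Acaca varied far more between embryos than the Cast allele. In F1 embryos Cast votes, scaled by the total on genes in the same way as RPM (VPM), ran from 9.63 to 25.4 VPM with a median of 16.8 and a coefficient of variation of 28.3%. B6 votes ran from 0.126 to 9.85 VPM with a median of 2.18 and a coefficient of variation of 101%. Embryos of 1 litter differed as widely, since in Cast × B6 litter 1 an embryo had 9.85 VPM from B6 where its siblings had 0.203, 0.680 and 0.688, while Cast votes of the 4 lay between 9.77 and 17.6 VPM. In B6 × Cast litter 3, embryo 4 had a BAF of 0.275 and 42.2 RPM of Acaca, both apart from the other 7 embryos of its cross. These coefficients are a description, and they include counting error, which is larger for the less frequent allele. In VPM the SD over F1 embryos was larger for Cast votes (4.47) than for B6 votes (3.03).

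**Figure D3:**
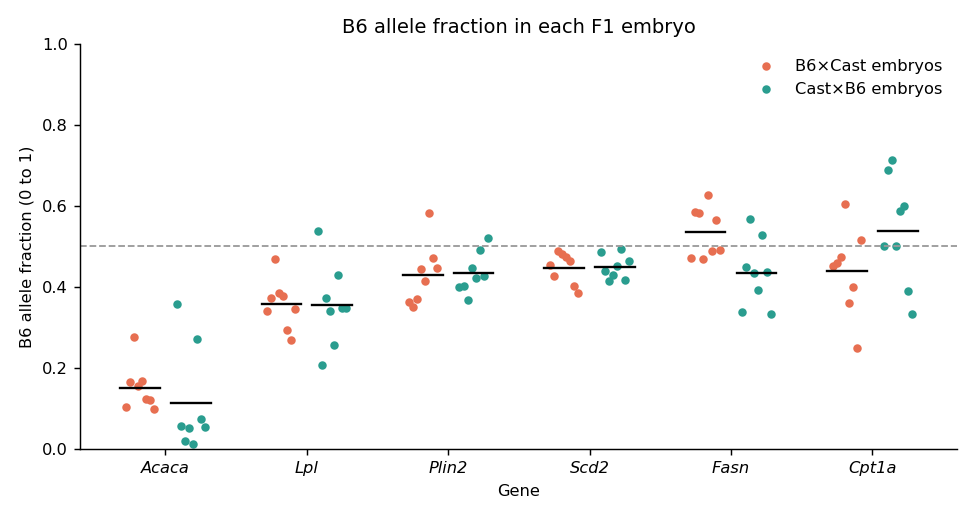
B6 allele fraction of Acaca, Lpl, Plin2, Scd2, Fasn and Cpt1a in each F1 embryo (points, 0 to 1, coloured by cross, bars are means of 8 embryos); the dashed line marks equal alleles. All 16 embryos lie below 0.36 for Acaca, with single Cast × B6 embryos from 0.0129 to 0.358.

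Among heterozygous N2 embryos, both alleles of Acaca were higher in lanes D to G, given here as a description. Mean Cast votes were 57.5, 32.6, 34.7 and 51.2 VPM in lanes D, E, F and G, and 4.35 to 14.5 in the other 10 lanes. Mean B6 votes in the same embryos were 25.2, 7.95, 15.4 and 25.2 VPM in those 4 lanes and 0.393 to 4.67 elsewhere. The BAF by lane ran from 0.0263 in lane H to 0.330 in lane G. B6/B6 embryos showed the range of the B6 allele alone, with mean Acaca levels of 1.54 to 1.98 RPM in lanes A, B, H and I and 26.1 to 71.4 RPM in lanes D to G.

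The BAF of Lpl was 0.372 among B6 × Cast embryos and 0.362 among Cast × B6 embryos (2288 votes, pooled 95% Wilson interval 0.348 to 0.388), and the B6 allele was higher in 1 of 16. Its adjusted p was 5.43e-04 in the paired test over 65 embryos, but 0.0231 with F1 embryos alone and 1 with heterozygous N2 embryos alone, neither under the threshold. Plin2, with a BAF of 0.412, missed it (adjusted p = 0.0857, and 3.48e-05 under Benjamini-Hochberg adjustment, which passes it). Scd2 at 0.454, Fasn at 0.485 and Cpt1a at 0.488 were not called. By parent of origin, Angptl4, Fabp3 and Pdk4 had no votes or too few to be tested. No other member was called by the binomial rule in both crosses, against 1.36% of 11903 genes. None was called by an exact permutation test between crosses, against 1.34% of 10859 genes. The smallest exact permutation p was 0.0183 for Fasn (adjusted p = 0.225), with a mean BAF of 0.535 ± 0.0616 for B6 × Cast embryos and 0.435 ± 0.0828 for Cast × B6 embryos (SD, n = 8 each).

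The embryo's own genotype at each gene was compared by a rank-sum test in N2 embryos after lane and somite number were removed. Of the 7 members tested, Acaca and Plin2 passed an adjusted p under 0.01, both higher in B6/Cast embryos, against 19.3% of 9733 genes. Acaca averaged 30.6 ± 29.6 RPM in 74 B6/Cast and 18.1 ± 23.9 RPM in 80 B6/B6 embryos, and the adjusted difference on the log2(RPM + 1) scale was 1.21 ± 0.13 (SE; adjusted p = 2.08e-14). Within B6 mothers Acaca averaged 19.1 ± 16.9 against 6.89 ± 11.7 RPM (medians 14.9 and 2.84), an adjusted difference of 1.54 (adjusted p = 6.41e-09). Within F1 mothers it averaged 43.4 ± 35.3 against 36.7 ± 27.5 RPM, but the unadjusted medians ran the other way, 22.3 against 38.9 RPM, and the adjusted difference was 0.70 (adjusted p = 7.75e-05). Whether the difference itself varied with the mother was not tested.

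Plin2 averaged 53.8 ± 25.7 RPM in B6/Cast and 46.6 ± 23.5 RPM in B6/B6 embryos, an adjusted difference of 0.27 ± 0.11 (SE; adjusted p = 0.00602). The call was lost within B6 mothers (adjusted p = 0.116), within F1 mothers (0.0976), with litter means removed (0.154) and without adjustment for lane and stage (0.201), all in the same direction. For Angptl4 the adjusted difference was 0.00 ± 0.04 (SE; adjusted p = 0.976). Its B6/B6 and B6/Cast embryos averaged 86.6 ± 30.3 and 92.9 ± 25.3 RPM under B6 mothers, and 59.04 ± 11.5 and 58.8 ± 12.7 RPM under F1 mothers. The means of both genotypes thus differed between mothers, with overlapping ranges. Lpl, Cpt1a, Fasn and Scd2 were not called.

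**Figure D4:**
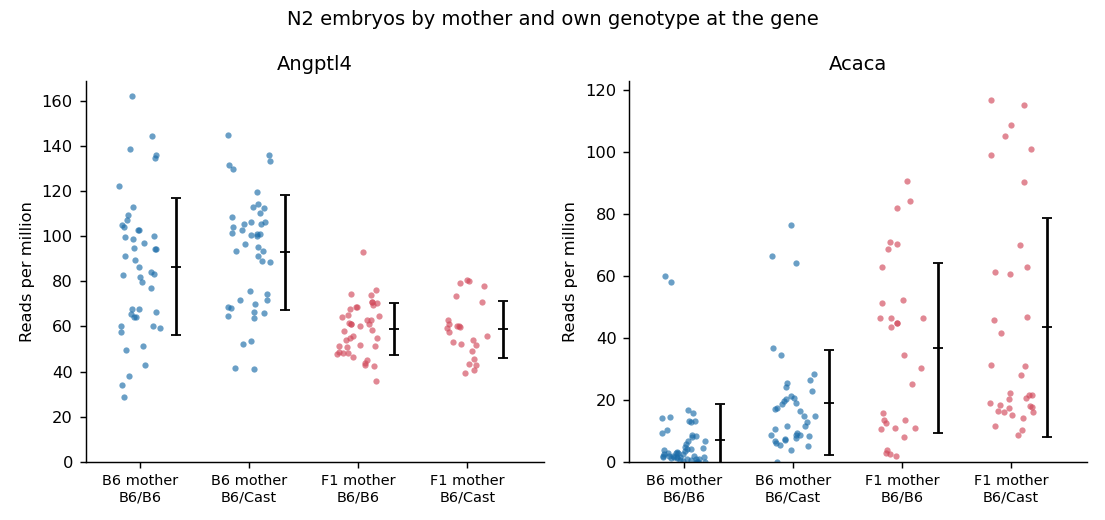
Angptl4 and Acaca in each N2 embryo (points, RPM, linear axes from 0) by mother and by the embryo's own genotype at the gene; black marks are means with SD, cut off where the SD passes below 0. Mean Angptl4 is higher under B6 mothers at either genotype (86.6 and 92.9 against 59.04 and 58.8), with overlapping ranges, and mean Acaca is higher in B6/Cast than in B6/B6 embryos under both mothers, although the medians under F1 mothers run the other way.

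Reciprocal F1 embryos gave a comparison of mothers in animals that had no part in the selection of Angptl4. In B6 × Cast embryos Angptl4 ranged from 87.7 to 121.9 RPM, and in Cast × B6 embryos from 58.7 to 83.8, without overlap, as for 3.22% of 14555 genes. The means were 99.7 ± 11.3 and 72.6 ± 9.80 RPM (SD, n = 8 each), a ratio of 1.37. In edgeR's quasi-likelihood test the log2 difference was 0.41 ± 0.10 (SE; adjusted p = 0.00956), and an exact two-sided permutation test gave 1.55e-04, the smallest p that 8 against 8 embryos allow. Embryos of a litter are not independent, and each cross had 2 litters.

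**Figure D5:**
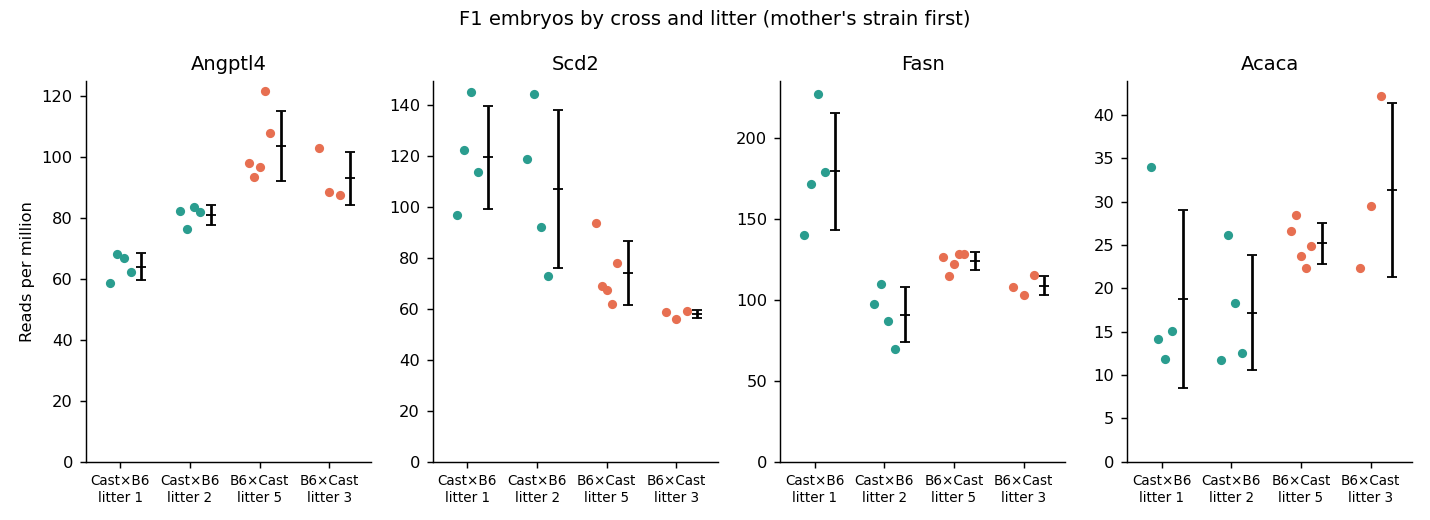
Angptl4, Scd2, Fasn and Acaca in F1 embryos (points, RPM, linear axes from 0) by litter in order of stage, coloured by cross; black marks are litter means with SD. Angptl4 averages 64.1 and 81.2 in the Cast × B6 litters and 103.7 and 93.1 in the B6 × Cast litters, and Fasn is highest in Cast × B6 litter 1.

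Stage was partly confounded with the cross. Cast × B6 litter 1 had 41 to 43 somites and litter 2 had 46 to 48, whereas B6 × Cast litter 5 had 48 to 50 and litter 3 had 58 to 63. By litter Angptl4 was 64.1 ± 4.40 (n = 4), 81.2 ± 3.23 (n = 4), 103.7 ± 11.6 (n = 5) and 93.1 ± 8.66 RPM (n = 3) in that order, so that it was not highest in the oldest litter. Between the litters nearest in stage, litters 2 and 5, the log2 difference was 0.40 ± 0.11 (edgeR adjusted p = 0.0399). That comparison holds 1 litter per cross, and 1 of the 2 sequencing runs differed between these litters. Cross, litter and run cannot be told apart in it, here or wherever the nearest litters are compared below. With somite number as a covariate, in the 13 embryos that had one, it was 0.54 ± 0.15 (edgeR adjusted p = 0.0745). Without Cast × B6 litter 1 it was 0.30 (edgeR adjusted p = 0.145) and without B6 × Cast litter 5 it was 0.19 (edgeR adjusted p = 0.272), so that the call rested on these litters. Cast × B6 litter 2 shared 1 of its 2 sequencing runs with the other litters and not the other, and without it the difference was 0.52 (edgeR adjusted p = 0.00518).

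Of the 8 members tested between F1 crosses, Angptl4 was higher in B6 × Cast and Scd2 lower, against 25.9% of 14555 genes called, 12.3% being higher in B6 × Cast. Scd2 was 68.005 ± 12.6 RPM (56.2 to 93.7) in B6 × Cast and 113.2 ± 25.2 RPM (72.9 to 144.9) in Cast × B6 embryos, with overlapping ranges and a log2 difference of -0.79 ± 0.14 (SE; edgeR adjusted p = 0.00149). Between the litters nearest in stage it was -0.47 ± 0.16 (edgeR adjusted p = 0.0744) and with somite number -0.34 (edgeR adjusted p = 0.277), neither past the threshold.

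Fasn turned with the litters compared. It was 118.3 ± 9.53 RPM in B6 × Cast and 135.1 ± 54.0 in Cast × B6 embryos (edgeR adjusted p = 0.362). By litter it was 179.3 ± 35.99 RPM in Cast × B6 litter 1 and 90.9 ± 17.0 in litter 2, against 124.0 ± 5.64 in B6 × Cast litter 5 and 108.7 ± 5.93 in litter 3. Between the nearest litters it was higher in B6 × Cast, by 0.51 ± 0.11 on the log2 scale (edgeR adjusted p = 0.0162), in a comparison that called 10.5% of genes, with 4.16% of all genes called in that direction. Without Cast × B6 litter 2 it was instead lower, at -0.71 (edgeR adjusted p = 5.84e-04).

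Acaca was 27.5 ± 6.51 RPM in B6 × Cast and 18.0 ± 8.02 RPM in Cast × B6 embryos, a log2 difference of 0.53 ± 0.22 (SE; edgeR adjusted p = 0.0806). The call was gained with DESeq2 (adjusted p = 0.0490), with upper-quartile normalization (edgeR adjusted p = 0.0472) and without Cast × B6 litter 1 (edgeR adjusted p = 0.0378). Its sign was opposite to that between mothers in N2 embryos. Cast votes were 19.2 ± 2.88 VPM in B6 × Cast and 12.4 ± 2.77 in Cast × B6 embryos, and B6 votes 3.72 ± 2.54 and 2.31 ± 3.48. Lpl (16.4 ± 2.38 and 16.4 ± 2.28 RPM), Plin2 (85.9 ± 5.21 and 81.9 ± 10.6 RPM) and Cpt1a (5.01 ± 0.8291 and 4.13 ± 0.794 RPM) were not called, with edgeR adjusted p of 0.593, 0.980 and 0.202.

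Partners and relatives of Angptl4 were read from 7 pathway lists of 136 genes, 130 of them in the tables. Over all genes tested, 12.3% were higher in B6 × Cast and 13.6% lower, and 4.16% and 6.3% between the nearest litters. For the genes that act on lipoprotein lipase and its lipoproteins (the members themselves not included), 11 of 19 were higher in B6 × Cast and 2 lower, but only 1 and 2 between the nearest litters. Higher genes included Gpihbp1, which carries lipoprotein lipase to the vessel lumen (4.52 ± 1.40 against 1.99 ± 0.719 RPM, log2 difference 1.13), and Apoc1 (110.0 ± 21.4 against 60.4 ± 16.3 RPM, 0.80) and Apoe (588.1 ± 81.3 against 372.5 ± 104.3 RPM, 0.60), which coat lipoproteins. The list's median log2 difference was 0.45, against -0.03 over all genes tested.

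Of PPAR receptors, partners and coactivators, 3 of 13 were higher and none lower (23.1% called, against 25.9% of all genes). They were the RXR genes Rxrg (14.6 ± 2.55 against 7.86 ± 1.59 RPM) and Rxra (126.4 ± 8.81 against 96.8 ± 8.88 RPM) and the coactivator gene Ncoa1 (34.5 ± 5.82 against 22.3 ± 4.18 RPM). The ranges of each did not overlap between crosses, as for 3.22% of 14555 genes. Over N2 embryos Rxrg and Rxra also rose with somite number (rho = 0.418 and 0.295), and stage was partly confounded with the F1 cross. Between the nearest litters 3 of the list were higher, Rxrg and Rxra among them. In fatty acid oxidation, 3 of 25 were higher and 4 lower, with Cpt1c, a brain form of the carnitine transferase, at 71.9 ± 11.2 against 47.1 ± 11.8 RPM. Between the nearest litters 1 of the 25 was higher and 1 lower. In fatty acid synthesis 1 of 20 was higher and 4 lower (25% called, against 25.9% of all genes). Among the lower were Scd1 (6.46 ± 1.42 against 10.5 ± 2.18 RPM) and Acly (39.6 ± 8.71 against 62.7 ± 14.4 RPM). Between the nearest litters none of the 20 was called.

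Lipid droplet and triglyceride genes had 2 of 19 higher and 1 lower, with Mgll, the monoglyceride lipase gene, at 41.8 ± 16.0 against 20.7 ± 3.80 RPM. Fatty acid binding and uptake genes had 2 of 17 higher, Slc27a5 and Fabp1, and 2 lower, Dbi and Fabp7. Of pyruvate dehydrogenase genes 1 of 10 was higher, the kinase gene Pdk2 (59.6 ± 10.2 against 38.3 ± 11.5 RPM), and 4 were lower, including Pdk1 and Pdha1. Between the nearest litters 2 of 19 droplet genes were higher, 2 of 17 binding genes lower and 1 of 10 pyruvate dehydrogenase genes lower. Over all lists 23 of 123 genes were higher and 17 lower between crosses (32.5% called, against 25.9% of all genes), and 7 and 6 between the nearest litters (10.6%, against 10.5% of all genes).

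Developmental stage was then examined through somite number in the 147 N2 embryos that had one, from 42 to 57 somites. Of the 7 members tested by Spearman's correlation, only Lpl was called, against 21.9% of 10040 genes. Lpl fell from 26.7 ± 11.6 RPM in 21 embryos of at most 45 somites to 12.9 ± 6.51 RPM in 14 embryos of at least 53 (rho = -0.278, adjusted p = 0.00618; r = -0.343, permutation p = 3.0e-05, and -0.337 without the 2 embryos farthest from the median stage). With lane means removed the relation of Lpl was gone (rho = 0.00, adjusted p = 0.993), and over 29 litter means rho was -0.305 (permutation p = 0.108).

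Fasn took its place within lanes. Its rho was -0.112 over all embryos (adjusted p = 0.328) and -0.392 with lane means removed (adjusted p = 1.16e-04), the only member called in that form, against 11.5% of genes. Without removal of lanes Fasn fell with stage under B6 mothers (rho = -0.560, adjusted p = 8.45e-07) and rose under F1 mothers (rho = 0.461, adjusted p = 0.00330). With lanes removed rho was -0.441 under B6 mothers (adjusted p = 0.00236) and -0.143 under F1 mothers (adjusted p = 0.634), and edgeR's interaction test with lane in the model gave a difference of slopes of -0.02 ± 0.03 (SE, log2 per somite, B6 minus F1 mothers; adjusted p = 0.939). In edgeR with lane and mother, an alternative chosen after the data were seen, its slope was -0.07 ± 0.01 on the log2 scale per somite (adjusted p = 3.25e-05).

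Angptl4 was 73.6 ± 20.4 RPM up to 45 somites and 84.3 ± 42.7 from 53 somites on, with rho of 0.00589 over all embryos (adjusted p = 0.969), 0.225 under B6 mothers (0.0685) and 0.238 under F1 mothers (0.161). None of these passed the threshold. Acaca was not called over all embryos (rho = -0.191, adjusted p = 0.0780) but was under B6 mothers (rho = -0.452, adjusted p = 1.47e-04), and Scd2 likewise (-0.095 over all, -0.262 under B6 mothers with an adjusted p of 0.0335); neither was called with lanes removed. Angptl4, Cpt1a and Plin2 were called in none of these forms. No member was called over litter means, against 1.75% of 10036 genes. Among partners, Apoc2, the activator of lipoprotein lipase, rose with stage (rho = 0.591, adjusted p = 7.63e-13), also within lanes (0.611), and 6 of 9 genes of its list and 6 of 9 PPAR genes rose, while 1 PPAR gene, Med1, fell, against 14.0% of all genes rising and 7.92% falling. Within lanes 3 and 1 of these lists rose and none fell, against 8.46% of all genes rising.

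Finally, embryos of a lane were used to ask which genes varied along with Angptl4, a comparison nearly free of the contrast on which it was selected. None of the 6 other members at or above 5 RPM was called, against 12.4% of 10006 genes positively and 9.61% negatively correlated. Within lanes rho was -0.115 for Lpl, -0.0737 for Plin2, -0.0620 for Cpt1a, -0.00235 for Acaca, 0.0658 for Scd2 and 0.0668 for Fasn, with adjusted p from 0.356 to 0.990. Over all embryos, with lanes left in, the values for Acaca (-0.433), Scd2 (-0.280), Cpt1a (-0.231) and Lpl (-0.228) were negative, in step with the lanes described above.

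The 10 genes most like Angptl4 over the 154 embryos within 14 lanes were Acaa1a (rho = 0.599), Stoml1 (0.578), Ift46 (0.569), Bmp1 (0.553), Tspan4 (0.545), Ip6k1 (0.544), Lemd2 (0.541), Hoxa11as (0.540), Mir678 (0.533) and Ptdss2 (0.530). Acaa1a encodes a peroxisomal thiolase of fatty acid oxidation and averaged 203.5 RPM, and Ptdss2 makes phosphatidylserine. These points share libraries and depth, and the correlations are a description. Of the 10, only Bmp1 also differed between F1 crosses (log2 difference 0.50, edgeR adjusted p = 0.00804), against 25.9% of 14555 genes called, so that these genes did not stand out there. Of 88 pathway genes, 9 were positively and 7 negatively correlated with Angptl4 within lanes (18.2%, against 22.02% of all genes), a share no higher than the background. Among them were Elovl1 (0.405), Agpat1 (0.304), Etfb (0.297) and Apoe (0.252) on the positive side and Hadh (-0.296), Dbi (-0.266) and Scd1 (-0.264) on the negative. None of the 9 PPAR genes tested was called. Summed heart muscle markers had a rho with Angptl4 within lanes of 0.317 and erythroid markers of -0.256, while placental (-0.0445), decidual (-0.0341) and yolk sac and liver markers (0.0393) were near 0. Placental markers summed to at most 5.98 RPM in any N2 embryo and adipocyte markers (0.198) to at most 5.48. Of 4 decidual markers, 1 reached a mean of 5 RPM. At such low levels the placental and adipocyte values cannot show whether Angptl4 varied with these tissues. The part of all these tissues in the Angptl4 level was not tested.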

How the data were processed

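3SEQ libraries of single whole embryos were mapped by the authors with Bowtie2 (version not given in the sources used here) to mm9 and to a Cast genome with strain SNPs substituted, and the deposited values are raw counts of reads on exons per RefSeq gene. The authors also deposited allele votes, estimated counts that need not be whole, and genotype codes from a hidden Markov model, read here as 1 = B6/B6, 0.5 = B6/Cast and 0 = not called. Of the N2 columns, 8 have no mother, litter or embryo in the labels and were not used, and 6 matched embryos without genotypes entered only the alternative with all 160 matched embryos.

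Counts were divided by the total on genes to give RPM. Tests were fitted on all genes that passed each minimum (5 RPM on average in N2 embryos, 10 counts in at least 8 F1 embryos, 20 votes per cross) with Benjamini-Hochberg adjustment unless given otherwise. The tools were edgeR 4.0.16 with TMM, limma 3.58.1, DESeq2 1.42.0, scipy 1.17.1, R 4.3.3 and Python 3.11.15, and permutation tests drew 100000 resamples. The study's factor normalization was replaced by removal of lane means and a somite slope, with missing somite numbers set to the mean. The labels name no separate collections beyond litters, so p-values measure the spread between embryos. The edgeR, DESeq2 and limma fits and the correlation, rank-sum, paired and binomial tests were tried on simulated data. Promoter and intron letters came from the NCBIM37 (mm9) reference with GENCODE M1 gene models. Alternatives covered lane, litter, mother, stage, depth, normalization and filters.

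The 9 genes and the pathway and marker lists were chosen with earlier results of these data known. Named besides the members were at most the 4 genes of each list with the smallest adjusted p in a test, and the 10 with the highest rho with Angptl4. Some list genes that meet this rule are not reported here.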

Additional observations from a re-analysis of the deposited data

Results flagged for a closer look

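Acaca in B6 × Cast litter 3 embryo 4 stood apart from the other 7 embryos of its cross, at 42.2 RPM against 29.5 for the nearest, a gap of 0.641 of the group's range. The same embryo stood apart in the B6 allele fraction of Acaca, at 0.275 against 0.166 for the nearest, a gap of 0.618 of the range. Both gaps exceed Dixon's 95% critical value for 8 embryos. In all 29 groups were tested, of which these 2 passed, while chance passes about 1 in 20.

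Slopes on somite number differed between embryos of B6 and F1 mothers when lane was left out of edgeR's model. The difference (B6 minus F1 mothers, log2 per somite) was -0.27 for Cpt1a (adjusted p = 0.0138), -0.23 for Acaca (0.0167), -0.18 for Fasn (1.27e-05) and -0.36 for Scd2 (0.00445). Of all genes, 4720 passed in that model. With lane in the model 1 gene passed, and the adjusted p of these 4 was 0.796, 0.771, 0.939 and 0.857. These models were chosen after the data were seen.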

How the results depend on the processing

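No paired analysis was possible because the replicate numbers only name embryos in accession order. The log2 ratio of Angptl4 between N2 mothers, 0.61, kept its sign in every alternative but that with all 160 matched embryos, where it was -0.19 because an embryo with 358 reads, 1 of them on Angptl4, counted as 2793 RPM; pooled reads gave 90.5 against 60.1 RPM. The genes correlated with somite number were 2200 (1405 rising, 795 falling; 979 and 1108 with TMM library sizes), 1150 with lane means removed, 5162 in embryos of B6 mothers, 176 over litter means, 3568 with edgeR and mother, 568 with limma voom and litter as a block, and, in alternatives chosen after the data were seen, 1003 with edgeR, lane and mother, and 716 and 277 with lane means removed within B6 and F1 mothers. The genes differing between F1 crosses were 3770, 1523 between the nearest litters, 2084 without B6 × Cast litter 3, 1718 without Cast × B6 litter 1, 6082 without Cast × B6 litter 2 (chosen after the data were seen) and 237 with somite number. Allele-specific genes were 1737, 1105 with F1 embryos alone and 2894 with Benjamini-Hochberg adjustment. Genes differing by own genotype were 1883, 1183 on unadjusted RPM, and 1005 and 1054 within B6 and F1 mothers. Genes correlated with Angptl4 within lanes were 2203, 7362 with no lane removed, 4951 with litter means removed instead, 467 and 1082 within B6 and F1 mothers, and 1181 with means of each litter in each lane removed (chosen after the data were seen). Among values past the threshold in either form, the sign turned for Lpl against somite number (-0.278) with lane means removed, over all embryos (0.00178) and within B6 mothers (0.0373), for Fasn against somite number within F1 mothers (0.461), for Fasn between the nearest F1 litters (0.51) and for Scd2 with Angptl4 with no lane removed (-0.280). In all 52 of 394 alternative values turned, the rest of them untested or past no threshold, 16 of these for the ratio between N2 mothers of members other than Angptl4 (for example Cpt1a from 0.17 to -0.65 on the second flowcell, Fasn from 0.06 to -0.49 there, Plin2 from -0.22 to 0.67 in lane M and Scd2 from -0.26 to 0.18 over lane means, log2). The causes were not tested. At the median N2 depth, genes near 5 RPM rest on few reads per embryo.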
